A study of Mus musculus with 12 samples.

Results

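The levels of 9 genes of the complement system were followed in mouse 3T3-L1 cells, a line of fibroblast-like preadipocytes that turns into fat cells under hormonal induction. The 9 genes were C1s1, C1ra, C2, C3, C4b, Cfb, Cfd (which encodes adipsin), Serping1 and Cd55, and each was taken as the row of its exact name among 39423 genes of the count and FPKM tables. They were chosen by measured values, with their levels in the 4 conditions of this study already known, so the values below are a description and no test of a member is offered. The cells carried either a nontargeting siRNA (siCtrl, labelled NC) or an siRNA against the arginine methyltransferase PRMT1 (siPRMT1, labelled KD), and all of them received the adipogenic cocktail DMI (MDI in the labels), made of insulin, dexamethasone and the phosphodiesterase inhibitor 3-isobutyl-1-methylxanthine. RNA was taken after 24 h (day 1) or 72 h (day 3) of DMI, which gave 4 groups of 3 libraries and 12 libraries in all. There was no group without DMI, all cells came from 1 line, and the siRNA used among those the study designed against PRMT1 is not given in the sources used here. Nothing in the labels says that replicates came from separate cultures, so the spread between libraries may be technical.

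Complement is a cascade of plasma proteins that marks surfaces for clearance and lysis. In the classical route the protease C1r activates the protease C1s, which cleaves C4 and C2 to form a convertase of C3. The alternative route runs through factor B, which adipsin (complement factor D) cuts once factor B is bound to C3b. C1 inhibitor, the product of Serping1, blocks C1r and C1s, and Cd55 speeds the decay of C3 convertases on the cell surface. Fat tissue is a known source of several of these proteins, and adipsin was first described as a serine protease that fat cells secrete.

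FPKM stands for counts scaled by the length listed for the gene and by the total of the library. The promoters of the 4 members with more than 1 FPKM in any group are shown because the differences described here rest on these genes. Each is 300 bases of the RefSeq annotation on GRCm38.p6, from 250 bases before to 50 bases after the transcription start, 5′ to 3′ on the strand of the gene. The windows are chr10:79890603-79890902 on the plus strand for Cfd, chr17:57228087-57228386 on the minus strand for C3, chr6:124542310-124542609 on the minus strand for the upstream of the 2 starts of C1s1, and chr6:124512371-124512670 on the plus strand for C1ra. Capitals mark matches to the motifs searched.

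Cfd: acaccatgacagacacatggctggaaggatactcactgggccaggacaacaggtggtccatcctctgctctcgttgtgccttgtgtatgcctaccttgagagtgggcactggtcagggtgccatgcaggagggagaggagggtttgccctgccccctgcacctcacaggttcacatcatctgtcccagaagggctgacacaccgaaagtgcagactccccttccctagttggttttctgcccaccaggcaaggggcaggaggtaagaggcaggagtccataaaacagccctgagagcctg

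C3: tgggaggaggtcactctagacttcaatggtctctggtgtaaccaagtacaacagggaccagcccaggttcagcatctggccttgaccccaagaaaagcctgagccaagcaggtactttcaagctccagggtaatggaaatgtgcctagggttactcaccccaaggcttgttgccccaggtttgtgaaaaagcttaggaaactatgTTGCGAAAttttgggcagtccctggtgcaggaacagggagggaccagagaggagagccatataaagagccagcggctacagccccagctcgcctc

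C1s1: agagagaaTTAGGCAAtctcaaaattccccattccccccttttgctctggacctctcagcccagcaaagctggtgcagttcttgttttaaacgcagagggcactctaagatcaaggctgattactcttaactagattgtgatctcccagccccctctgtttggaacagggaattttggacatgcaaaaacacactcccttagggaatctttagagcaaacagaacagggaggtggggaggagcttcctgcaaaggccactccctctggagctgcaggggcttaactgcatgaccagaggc

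C1ra: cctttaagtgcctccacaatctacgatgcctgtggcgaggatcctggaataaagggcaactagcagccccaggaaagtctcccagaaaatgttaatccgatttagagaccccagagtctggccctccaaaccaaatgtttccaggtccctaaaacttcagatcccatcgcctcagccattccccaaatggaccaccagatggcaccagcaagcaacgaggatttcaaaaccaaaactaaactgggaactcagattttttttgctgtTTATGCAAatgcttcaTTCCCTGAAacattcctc

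In all, 5 of the 9 members had a window (Cd55 besides these 4), with 6 windows among them. Both strands were searched for a C/EBP motif (TTGCNNAA), a gamma interferon activation site (TTCNNNGAA), an interferon response element (TTTC repeated after 2 free bases), a peroxisome proliferator response element (AGGTCA repeated after 1 free base) and a glucocorticoid response element (ACANNNTGT). The C3 window held the C/EBP letters TTGCGAAA, beginning at base -45 from the start, the C1s1 window held TTAGGCAA at base -242, and the C1ra window held TTATGCAA at base 17, after the start. The only other match was TTCCCTGAA, of the gamma interferon type, at base 33 of C1ra. The Cfd and Cd55 windows and the second start of C1s1 held no match. Of all 32851 windows of the table, 10.8% held the C/EBP letters, 8.3% the gamma interferon letters, 3.44% the interferon response letters, 0.0396% the peroxisome proliferator letters and 6.85% the glucocorticoid letters, so a C/EBP match is common and says only that these letters are there.

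Sequencing depth was 15116462 to 42357137 counts a library, with a median of 23612956. Prmt1, the target of the siRNA, fell from 85.8 ± 4.71 to 41.3 ± 2.61 FPKM at day 1 and from 124 ± 15.1 to 67.4 ± 4.92 FPKM at day 3 (mean ± SD, n = 3), and was lower in every siPRMT1 library of a day than in every siCtrl library. Replicate 3 of siCtrl at day 1 stood apart from the other 2 libraries of its group, with a chi-square per gene of 50.6 and 30.8 against 5.3 between those 2. The fibroblast and preadipocyte markers summed to 1278 to 1403 FPKM at day 1 and 484 to 676 FPKM at day 3, while the 12 adipocyte genes summed to 139.5 to 204.2 FPKM at day 1 and 2172 to 2931 FPKM at day 3. The 10 macrophage markers together summed to 4.37 to 6.82 FPKM. Of these, Ptprc, Aif1 and Tyrobp had 0 counts in every library, and Adgre1 and Laptm5 had 1 count each in all. Cd14 (mean 2.40 FPKM over the 12 libraries), Cd68 (1.88), Fcer1g (0.488), Lyz2 (0.343) and Csf1r (0.129) had counts in all 12.

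Of the 9 members, C3 was the most abundant in every group, C1s1 and C1ra were expressed at a moderate level, and Cfd went from under 1 FPKM at day 1 to the second place at day 3. FPKM is scaled by the length listed for each gene, so levels of different genes compare only as far as that length fits the transcripts present. For Cd55 the listed length is 9722 bases, against 2507 bases in a further row described below. In siCtrl cells at day 1 the order was C3 at 123 ± 18.7, C1s1 at 22.4 ± 1.26 and C1ra at 12.9 ± 0.76 FPKM, with no overlap between neighbours (n = 3). At day 3 in the same cells it was C3 at 520.1 ± 28.3, Cfd at 123 ± 10.4, C1s1 at 6.93 ± 0.10 and C1ra at 6.69 ± 0.12 FPKM, again without overlap, although the last 2 differed by little. Under their plain names, Cfb, C4b, Serping1 and Cd55 stayed under 0.5 FPKM in all 12 libraries, and C2 was listed at 0 in all of them. The low members overlapped with a neighbour in the order of at least 1 group, apart from C2; in siCtrl cells at day 1 these included Cfd and Cfb.

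**Figure D1:**
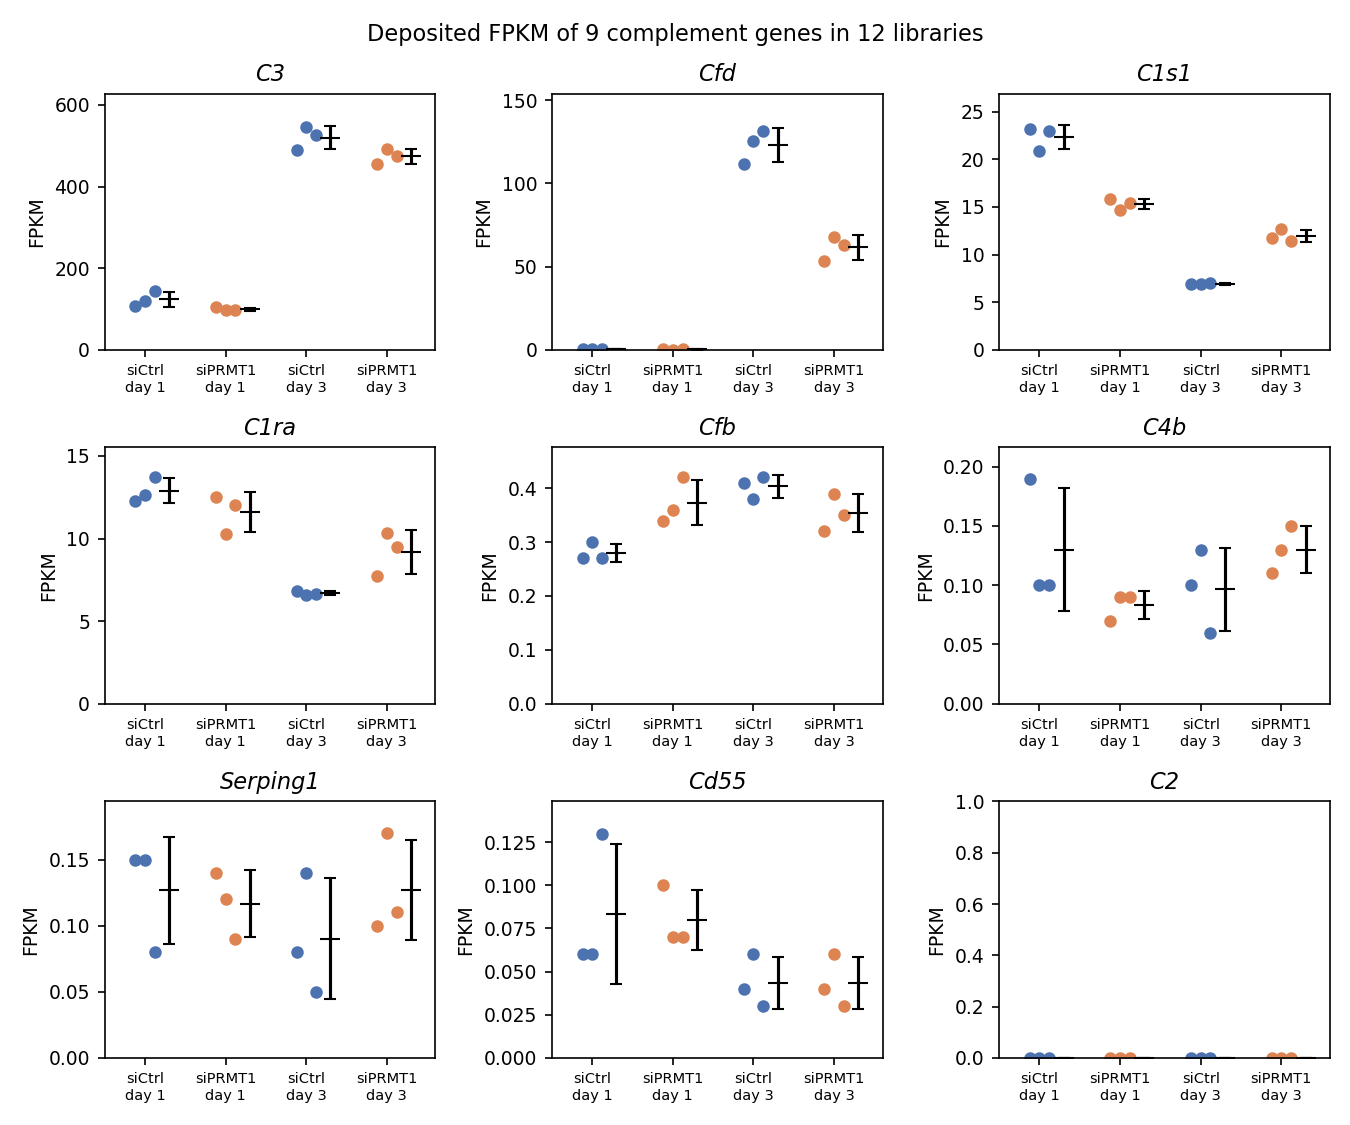
FPKM of the 9 members in each of the 12 libraries (points; y axis in FPKM, starting at 0 and scaled for each gene), in siCtrl and siPRMT1 cells at day 1 and day 3 of DMI, with the mean and SD of 3 libraries beside them. Cfd is near 0 at day 1 and above 50 FPKM in every library of day 3, C1s1 falls from siCtrl to siPRMT1 at day 1 and goes the other way at day 3, and C2 is at 0.

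The makeup of the summed FPKM of the 9 members shifted with the days. C3 made up 77.1% of the summed FPKM of the 9 genes in siCtrl cells at day 1, C1s1 14.2%, C1ra 8.12% and Cfd 0.232%. At day 3, C3 still held 79.1%, whereas Cfd held 18.7%, C1s1 1.06% and C1ra 1.02%. In siPRMT1 cells at day 3 the share of Cfd was 11.0%, that of C3 85.1% and that of C1s1 2.15%. Thus the summed FPKM of the 9 genes was dominated by C3 throughout. The second place among them passed from a protease of the classical route to that of the alternative route. Complement genes outside the 9 do not enter these shares.

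Adipsin was the member whose level changed by the largest ratio over the days among those tested. Cfd lies on chromosome 10 (79890853-79892660, plus strand, GRCm38) and encodes the protease that cleaves factor B. The siCtrl libraries of day 1 held 0.28, 0.25 and 0.61 FPKM of Cfd and the siPRMT1 libraries 0.18, 0.16 and 0.22 FPKM. These values rest on 11, 5 and 12 counts and on 4, 4 and 5 counts, so that, although the 2 groups did not overlap, Cfd was under the count filter of this comparison and a difference was not detectable at this depth (log2 fold change -0.99 ± 0.52 without the filter, not called). By day 3 Cfd had reached 111.58, 125.74 and 131.74 FPKM with siCtrl, but 53.31, 67.89 and 63.21 FPKM with siPRMT1. Every siPRMT1 library was thus below every siCtrl library, with means of 123 ± 10.4 and 61.5 ± 7.44 FPKM. The log2 fold change at day 3 was -1.01 ± 0.092 (SE), a ratio of 0.497, and met the call rule used throughout. That rule asked for an adjusted p under 0.05 in edgeR and an absolute log2 fold change over 0.5. For any member it only labels a fitted value and is no test, since the members were chosen with these levels known. In these bulk libraries, fewer cells that express a gene and less RNA of it per cell cannot be told apart.

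Over the course from day 1 to day 3, Cfd went up by 8.33 ± 0.21 on the log2 scale in siCtrl cells and by 8.30 ± 0.18 in siPRMT1 cells. Both changes met the call rule, and 17 of 13829 genes tested in siCtrl cells and 5 of 14224 in siPRMT1 cells had a larger log2 fold change. Cfd was under the count filter at day 1 and passed that of the courses through its day 3 libraries. Its call and its place among all genes are therefore a description and no test. The rise in both arms starts from the few counts of day 1 given above. The difference between the knockdown effects of the 2 days (the interaction of siRNA and day) was -0.04 on the log2 scale for Cfd and did not meet the call rule; leaving out single libraries moved it between -0.46 and 0.23.

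Adipsin was set beside 12 other adipocyte genes at day 3, from a list written with earlier results of these data known. All 12 had a negative log2 fold change, of which 5 were called lower (3.8% of all genes), and the values ran from -1.05 to -0.13 with a median of -0.47, against 0.01 over all 14039 genes tested. Adig, which encodes adipogenin, fell by 1.05 on the log2 scale (adjusted p = 4.2e-06), Plin1, which encodes the lipid droplet coat protein perilipin 1, by 0.71 (adjusted p = 1.8e-05) and Adipoq, the gene of adiponectin, by 0.69 (adjusted p = 2.7e-05). The value of Cfd, -1.01, lay between those of Adig and Plin1. Cfd stood to Adipoq in FPKM at a ratio of 0.569 ± 0.021 with siCtrl and 0.457 ± 0.068 with siPRMT1, and the ratio of Cfd to Fabp4, which encodes a fatty acid carrier, was 0.129 ± 0.0054 and 0.0716 ± 0.016. The libraries of the 2 groups did not overlap in either ratio, so Cfd was lower also relative to these 2 adipocyte genes. Fabp4, at -0.13, fell least of the 12, and Adig, at -1.05, fell slightly more than Cfd. A lower level of Cfd relative to the whole list is therefore not shown. At day 1, 3 of the 9 adipocyte genes tested were called lower (1.61% of all genes) and none higher, with Pparg at -0.52, Cebpa at -0.88 and Cd36 at -0.65 on the log2 scale (adjusted p = 0.0066, 0.016 and 0.041).

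**Figure D2:**
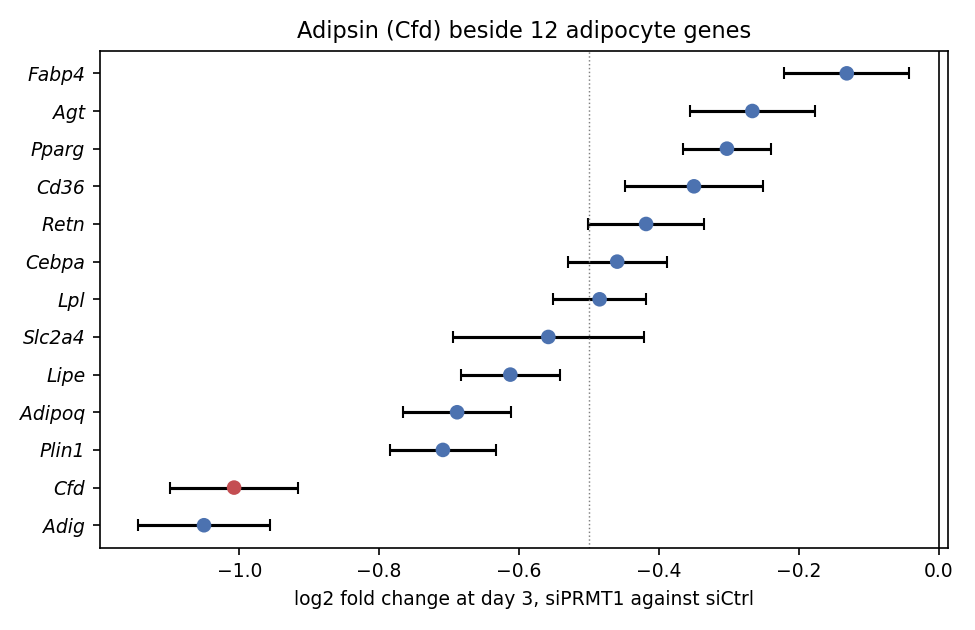
Log2 fold change at day 3, siPRMT1 against siCtrl (x axis), of Cfd (red) and the 12 genes of the adipocyte list (blue), with bars of 1 SE; the dotted line marks -0.5. Cfd at -1.01 sits between Adig at -1.05 and Plin1 at -0.71, and no gene of the list lies above 0.

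C3, whose product is the hub of all complement routes, lies on chromosome 17 (57203967-57228136, minus strand). It had 106.69, 119.59 and 143.60 FPKM in siCtrl cells at day 1 and 103.71, 96.86 and 98.18 FPKM in siPRMT1 cells. The siPRMT1 libraries were all lower, though the highest of them nearly reached the lowest control. The libraries of day 3 held 489.29, 544.98 and 525.88 FPKM with siCtrl and 454.91, 491.97 and 474.21 FPKM with siPRMT1, and here the ranges overlapped. The knockdown log2 fold change was -0.36 ± 0.098 at day 1 and -0.14 ± 0.069 at day 3, neither of which met the call rule, with intervals of 2 SE from -0.55 to -0.16 and from -0.28 to -0.0029. Between the days the change was 2.01 ± 0.11 in siCtrl and 2.24 ± 0.055 in siPRMT1 cells, ratios of 4.02 and 4.71, and both met the call rule. The interaction was 0.24 ± 0.13 and did not meet it, and without replicate 3 of siCtrl at day 1 it was 0.081.

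Because adipsin and C3 act in the same route, their ratio was taken in each library. At day 3 there were 4.385, 4.334 and 3.992 FPKM of C3 for each FPKM of Cfd with siCtrl, against 8.534, 7.247 and 7.502 with siPRMT1. The 2 groups did not overlap, since Cfd was lower by a larger ratio than C3.

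The proteases of the classical route moved the other way from C3 and Cfd over the days. C1s1 (chromosome 6, 124530344-124542392, minus strand) encodes a form of C1s, and C1ra (chromosome 6, 124512621-124523440, plus strand), its neighbour, encodes a form of C1r, which activates C1s. C1s1 had 23.18, 20.91 and 23.00 FPKM in siCtrl and 15.79, 14.72 and 15.40 FPKM in siPRMT1 cells at day 1. At day 3 it had 6.87, 6.88 and 7.05 FPKM in siCtrl and 11.73, 12.66 and 11.45 FPKM in siPRMT1 cells. The groups did not overlap on either day, and the side of the knockdown changed, lower at day 1 and higher at day 3. The log2 fold change of the knockdown was -0.60 ± 0.074 at day 1 and 0.78 ± 0.082 at day 3, both meeting the call rule, and the interaction was 1.40 ± 0.11, which met it too.

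C1ra stood at 12.30, 12.61 and 13.74 FPKM in siCtrl cells on day 1, overlapping with 12.53, 10.26 and 12.01 FPKM in siPRMT1 cells. On day 3 it stood at 6.83, 6.59 and 6.65 FPKM with siCtrl against 7.75, 10.33 and 9.50 FPKM with siPRMT1, without overlap and with the wider spread in the knockdown. C1ra followed C1s1 at a smaller size. Its knockdown log2 fold change was -0.20 ± 0.095 at day 1 and 0.45 ± 0.10 at day 3, the latter under the fold threshold, and its interaction of 0.68 ± 0.15 met the call rule. Leaving out replicate 1 of siPRMT1 at day 3, the lowest of its group, took the day 3 value to 0.55, which met the rule.

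From day 1 to day 3, C1s1 fell in siCtrl cells by 1.76 ± 0.093 and C1ra by 1.01 ± 0.098 on the log2 scale, both called. In siPRMT1 cells the changes were -0.37 ± 0.068 and -0.34 ± 0.10, neither of which reached the fold threshold. The 4 comparisons share libraries with each other, so the knockdown and course values of a gene are not independent. The ratio of C1s1 to C1ra FPKM also differed between groups. On day 1 the ratio was 1.885, 1.659 and 1.674 with siCtrl against 1.26, 1.434 and 1.282 with siPRMT1. On day 3 the siCtrl libraries gave 1.006, 1.045 and 1.059 and the siPRMT1 libraries 1.513, 1.225 and 1.205. C1s1 was therefore lower relative to C1ra with the knockdown at day 1 and higher at day 3, with no overlap on either day.

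Mouse has a second copy of each of these genes beside them on chromosome 6, C1rb (124570430-124581044, plus strand) and C1s2 (124624625-124641894, minus strand), which are not members. How reads that fit several of these copies were counted is not given in the sources used here, so the split between paralogues is uncertain. C1rb had 10.4 ± 0.139 FPKM in siCtrl and 9.52 ± 1.28 FPKM in siPRMT1 cells at day 1, and 4.22 ± 0.440 and 7.12 ± 0.655 FPKM at day 3. Its knockdown log2 fold change was -0.18 ± 0.10 at day 1 (adjusted p = 0.34) and 0.74 ± 0.11 at day 3 (adjusted p = 3.2e-04), with an interaction of 0.94 ± 0.16 (adjusted p = 0.0015). C1s2 was lower in abundance, at 2.06 ± 0.387 and 1.25 ± 0.223 FPKM at day 1 and 0.427 ± 0.067 and 0.637 ± 0.029 FPKM at day 3. It fell by 0.79 ± 0.19 on the log2 scale at day 1 (adjusted p = 0.040), was 0.59 ± 0.20 at day 3 (adjusted p = 0.054, not called) and had an interaction of 1.40 ± 0.28 (adjusted p = 0.0052). The knockdown values of the 4 genes were thus negative at day 1 and positive at day 3. The paralogues of C4b and Cd55, C4a and Cd55b, had at most 6 and 5 counts in any library under their own names and were not tested.

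**Figure D3:**
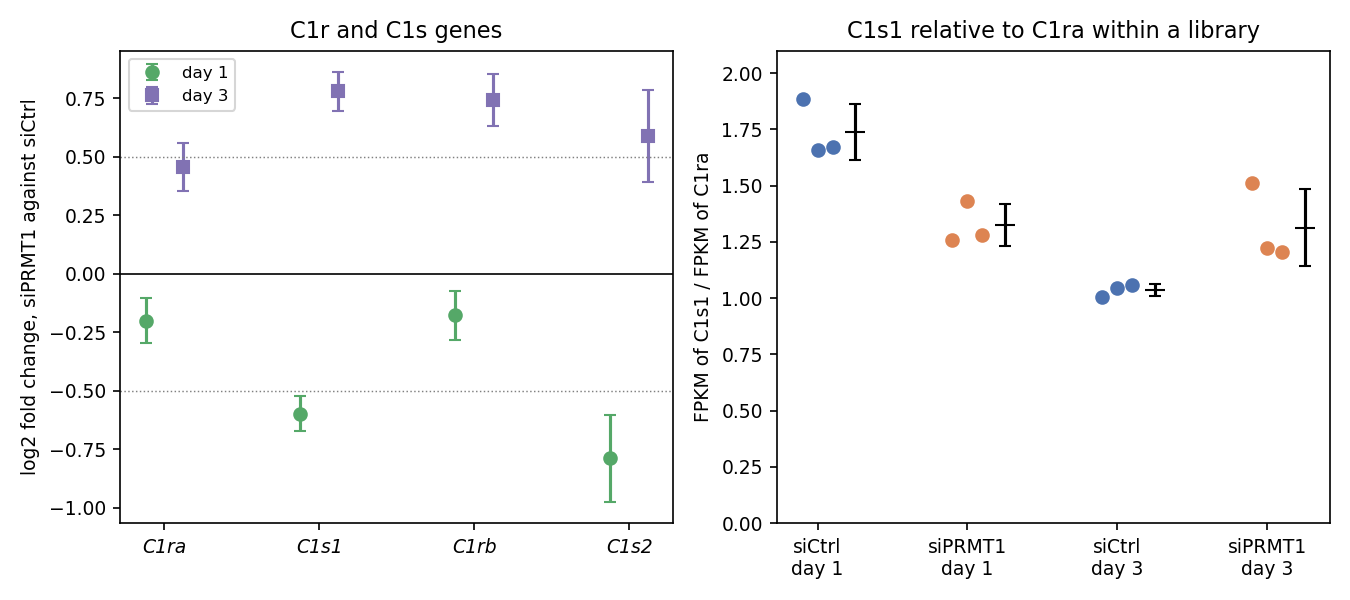
Left, log2 fold change of siPRMT1 against siCtrl (y axis) for the C1r and C1s genes at day 1 (green circles) and day 3 (purple squares), with bars of 1 SE and dotted lines at 0.5 and -0.5. Right, the ratio of C1s1 to C1ra FPKM in each library (points) with the mean and SD of 3 libraries; all 4 genes lie below 0 at day 1 and above 0 at day 3, and the ratio is lower in siPRMT1 cells at day 1 and higher at day 3.

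The remaining members were near the limit of detection under their plain names. Factor B, the gene Cfb (chromosome 17, 34856374-34862514, minus strand), had 0.27, 0.30 and 0.27 FPKM in siCtrl and 0.34, 0.36 and 0.42 FPKM in siPRMT1 cells at day 1. At day 3 it had 0.41, 0.38 and 0.42 FPKM in siCtrl and 0.32, 0.39 and 0.35 FPKM in siPRMT1 cells. The groups did not overlap at day 1 and did at day 3, while the log2 fold changes of 0.36 ± 0.21 and -0.21 ± 0.23 did not meet the call rule. Thus, under its plain name, the RNA of the substrate of adipsin was listed far below that of adipsin at day 3. Cfb has further rows on contigs, described below. How reads that fit both places were treated is not given, so its level may be too low.

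C4b (chromosome 17, 34728036-34743901, minus strand) encodes the C4 protein that C1s cleaves. The siCtrl libraries held 0.19, 0.10 and 0.10 FPKM at day 1 against 0.07, 0.09 and 0.09 FPKM with siPRMT1. The corresponding values of day 3 were 0.10, 0.13 and 0.06 FPKM against 0.11, 0.13 and 0.15 FPKM. The control at day 1 was spread most, through a single library. None of its knockdown log2 fold changes, -0.72 ± 0.34 at day 1 and 0.51 ± 0.33 at day 3, nor its interaction of 1.24 ± 0.49, met the call rule. Single libraries moved all of these values. Without replicate 1 of siCtrl at day 1 the day 1 value was -0.22 and the interaction 0.76, without replicate 3 of siCtrl at day 3 the day 3 value was 0.22, and without replicate 3 of siCtrl at day 1 the interaction was 1.37 and met the rule.

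Under their plain names the 2 regulators were also scarce. Serping1 (chromosome 2, 84765360-84775444, minus strand) had 63 counts over the 12 libraries, 0.05 to 0.17 FPKM, and did not pass the count filter of any comparison. Cd55 (chromosome 1, 130429789-130463021, minus strand) had 0.06, 0.06 and 0.13 FPKM in siCtrl and 0.10, 0.07 and 0.07 FPKM in siPRMT1 cells at day 1, and 0.04, 0.06 and 0.03 FPKM in both groups at day 3. The siRNA groups overlapped on each day. Its change from day 1 to day 3 was -0.94 ± 0.40 in siCtrl cells, not called, and -0.78 ± 0.32 in siPRMT1 cells, called. The call was lost in 6 of 12 alternatives in siPRMT1 cells, 4 of them without a single library, and gained in 4 of 12 in siCtrl cells, where the value without replicate 3 of day 1 was -0.60, so no difference between the arms is read from these calls. C2 (chromosome 17, 34862602-34882100, minus strand), the partner of C4b in the classical convertase, had no count under its name, which in each library allows up to 3 counts.

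Part of the reads of 4 members may stand elsewhere in the table. C2, C4b, Cfb and Cd55 have further rows, with a number after the name, that the annotation places on contigs outside the chromosomes. Over the 12 libraries, Cd55 had 181 counts under its plain name and 773 under the suffixed name, Cfb had 281 and 102, C4b had 190 and 14, and C2 had 0 and 1. For Cd55 the suffixed row held more of the counts than the plain one, over a shorter length (2507 against 9722 bases). Per base it was thus the higher row, and the Cd55 FPKM given above are of the plain row alone. Neu1 and Atf6b, which lie near C2 and C4b on chromosome 17, were split more unevenly, with 5 and 768 counts for Neu1 and 4 and 5264 for Atf6b. Of protein-coding genes with such a contig copy, 32.9% (349 of 1060) had 0 counts under the plain name, against 20% (3849 of 19274) of those without. How reads that fit both places were treated is not given in the sources used here, so the levels of these 4 members under the plain names may be too low; their part in the low values was not tested. With the copies summed, Cd55 had a knockdown log2 fold change of -0.31 at day 1 and 0.19 at day 3, Cfb 0.26 and -0.19, and C4b -0.70 and 0.61, none of which met the call rule.

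**Figure D4:**
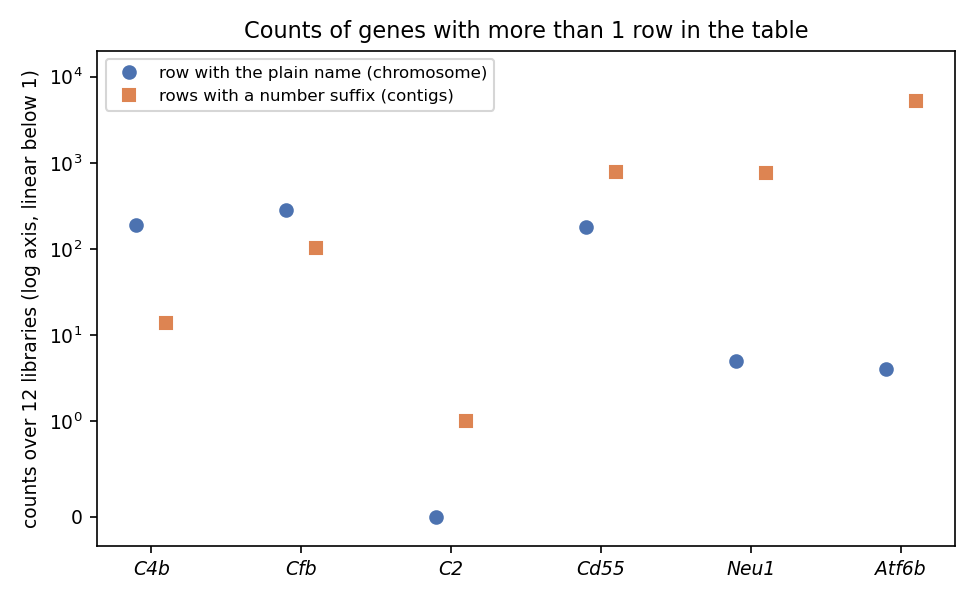
Counts over the 12 libraries (y axis, log scale that is linear below 1) under the plain gene name (blue circles) and summed over the rows with a number suffix on contigs (orange squares), for the 4 members with such rows and for the neighbouring genes Neu1 and Atf6b. Cd55, Neu1 and Atf6b hold more counts under the suffixed names.

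Counted over the members, the comparisons gave the following, with the share of all genes beside each. At day 1, 1 of the 6 members that passed the count filter was called, C1s1, lower, where 3.56% of all genes tested were called (1.95% higher and 1.61% lower). At day 3, C1s1 was called higher and Cfd lower among 6 members tested, where 6.65% of all genes were called (2.84% higher and 3.8% lower). From day 1 to day 3 in siCtrl cells, C3 and Cfd were called higher and C1s1 and C1ra lower among 7 tested, where 43.2% of all genes were called (22.7% higher and 20.4% lower). In siPRMT1 cells, C3 and Cfd were called higher and Cd55 lower among 7, where 36.5% of all genes were called (19% higher and 17.4% lower). The interaction was called for C1s1 and C1ra, both higher, among 7, where 8.24% of all genes were called (4.77% higher and 3.47% lower). Since the members were picked with these levels in view, nothing is read from these counts.

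The FPKM of the 2 groups did not overlap for 4 of 6 members at day 1 (31.7% of all genes tested). These were C1s1, C3 and C4b, lower, and Cfb, higher. For C4b the gap is only the last digit listed, a lowest control value of 0.10 FPKM against a highest knockdown value of 0.09. The closest libraries hold 12 counts each among the controls, against 14 and 13 at greater depth with the knockdown. C4b is therefore not read as separated. At day 3 the groups did not overlap for 3 of 6 members (34.2% of all genes), C1s1 and C1ra higher and Cfd lower. Over the days it was 5 of 7 in siCtrl cells (64.3%) and 5 of 7 in siPRMT1 cells (66.2%). Only those members that passed a filter on low counts enter these numbers, and C2 and Serping1 never did.

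**Figure D5:**
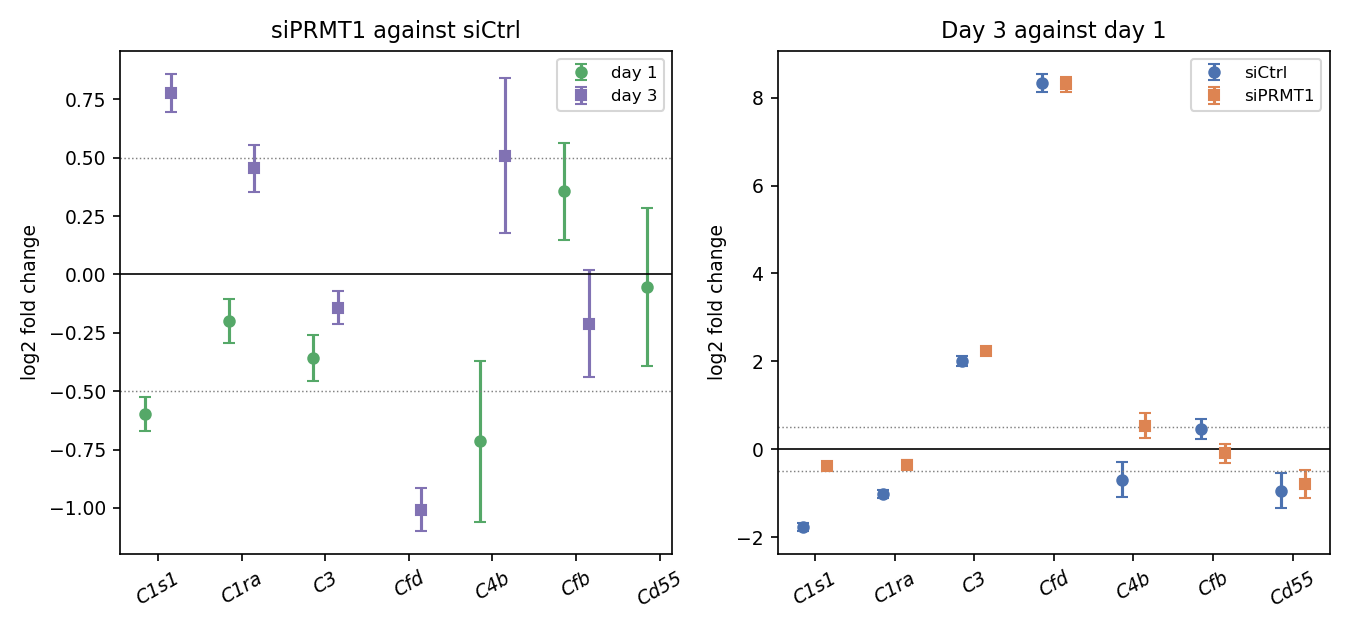
Log2 fold change of each member that passed the count filter (y axis), for siPRMT1 against siCtrl at day 1 and day 3 (left) and for day 3 against day 1 in siCtrl and siPRMT1 cells (right), with bars of 1 SE and dotted lines at 0.5 and -0.5. C1s1 lies at -0.60 at day 1 and 0.78 at day 3, Cfd at -1.01 at day 3, and Cfd rises by over 8 on the log2 scale in both arms.

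Another 44 complement genes came from lists written with earlier results of these data known. Of these, 13 passed the count filter at day 1 and 14 at day 3. At day 1, 1 was called higher and 1 lower, where 3.56% of all genes were called. Cd93, a receptor once proposed to bind C1q, rose from 0.313 ± 0.038 to 0.613 ± 0.101 FPKM (log2 fold change 0.91 ± 0.18, adjusted p = 0.022), and C1s2 fell as given above. At day 3, 3 were called higher and 3 lower, where 6.65% of all genes were called. The genes that rose were C1rb, Masp1, which encodes a protease of the lectin route (1.94 ± 0.110 to 2.85 ± 0.349 FPKM, log2 fold change 0.55 ± 0.11, adjusted p = 0.0027) and Cd93 (0.66, adjusted p = 0.028). The genes that fell were C1rl, a C1r-like protease gene (4.95 ± 0.220 to 3.40 ± 0.123 FPKM, log2 fold change -0.54, adjusted p = 0.0013), C8g, which encodes a chain of the lytic component C8 (2.24 ± 0.134 to 1.48 ± 0.307 FPKM, -0.62, adjusted p = 0.032) and Cfi, the gene of the factor I protease that inactivates C3b. Cfi had at most 1 count in any library at day 1. At day 3 it had 18, 15 and 20 counts in siCtrl and 7, 10 and 12 counts in siPRMT1 cells (log2 fold change -1.16 ± 0.30). It passed the count filter there through the siCtrl libraries, where it was higher, so its call is a description and no test.

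From day 1 to day 3, 3 of the 4 other initiator genes tested were called lower in siCtrl cells and 2 of 4 in siPRMT1 cells, and none was called higher, where 20.4% and 17.4% of all genes were called lower. Masp1 was at 11.6 ± 0.693 FPKM in siCtrl and 13.4 ± 0.670 FPKM in siPRMT1 cells at day 1, well above its day 3 levels. The other abundant genes of these lists were the membrane regulators Cr1l, which encodes the rodent regulator Crry, and Cd59a, whose product blocks the lytic pore. Cr1l stayed between 17.46 and 23.06 FPKM in all 12 libraries and Cd59a between 5.50 and 7.18 FPKM, and neither was called in a knockdown comparison. Clu, the gene of clusterin, was the 1 regulator with a called interaction (0.75, adjusted p = 0.030). The genes of the C1q chains, C1qa, C1qb and C1qc, had 0 counts in all 12 libraries, as had C6, C8a, C8b, Fcnb and Mbl1.

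Complement genes can respond to interferon and to acute phase signals, so 2 lists of such genes were counted in the same fits. All gene lists here were written with earlier results of these data known, so these counts are a description and no test. At day 1, 8 of 11 interferon-stimulated genes tested were called higher in siPRMT1 cells and none lower, with a median log2 fold change of 1.15 against 0.01 over all genes, and at day 3, 3 of 11 were called higher and none lower. Over all genes, 1.95% were called higher at day 1 and 2.84% at day 3. Rtp4 at 2.06, Oasl2 at 1.48 and Bst2 at 1.39 had the smallest p at day 1 (adjusted p = 0.0015, 0.0022 and 0.0035). Of 10 acute phase genes tested, 1 was called higher at day 1 (Il6, 1.17, adjusted p = 0.013; 1.95% of all genes), and 3 higher and 1 lower at day 3 (2.84% and 3.8% of all genes), among them Cp at 0.72 and Ptx3 at 0.54 (adjusted p = 6.3e-05 and 1.9e-04). Of the 7 fibroblast and preadipocyte markers, 6 were called lower from day 1 to day 3 in each arm, where 20.4% (siCtrl) and 17.4% (siPRMT1) of all genes were called lower. They summed to 484.4 to 518.1 FPKM in siCtrl and 595.6 to 676.2 FPKM in siPRMT1 cells at day 3, and 2 of the 7 were called higher with the knockdown there. The interaction was positive for all 7 and called for 3 of them, higher, where 4.77% of all genes were called higher. The part of any of these in the levels of the members was not tested.

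The genes whose pattern over the 12 libraries lay closest to a member were found among 11235 other genes whose mean FPKM was 1 or more, by the mean absolute difference of log2(FPKM + 1) after centring each gene on its mean. Nearest to Cfd were Mrap, which encodes an accessory protein of the melanocortin receptor (difference 0.102), Gpd1, the gene of a glycerol phosphate dehydrogenase (0.159), and Plin1 (0.238). Mrap had mean levels of 0.0933 and 0.040 FPKM at day 1 and 117.5 and 49.7 FPKM at day 3 in siCtrl and siPRMT1 cells. These lay near those of Cfd at day 3, whereas at day 1 Cfd, at 0.38 and 0.187 FPKM, was above Mrap, a gap that the 1 added before taking logs makes small. For C3 the nearest were Sult1a1, a sulfotransferase gene (0.0896), Adgrg1, an adhesion receptor gene (0.0935), and Pparg, the gene of the main regulator of fat cell formation (0.0948). Their levels lay below that of C3, with Pparg at 26.6 and 19.2 FPKM at day 1 and 112.2 and 91.4 FPKM at day 3, so the likeness is one of shape only. For C4b, at under 0.2 FPKM, log2(FPKM + 1) is nearly flat, and the nearest genes, Wdr7 (0.0299), Rpsa (0.0354) and Fbxl20 (0.0363), were flat too.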

How the data were processed

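RNA sequencing counts of 12 libraries of 3T3-L1 cells were used. The authors prepared mRNA libraries, trimmed reads with cutadapt 1.11 and aligned them with HISAT2 2.1.0 to mm10; RSEM 1.2.6 is also named in the submitters' processing notes, without its role, and strand and multi-mapping settings are not given in the sources used here. The deposited counts are whole numbers per gene without normalization. From them the authors derived FPKM; recomputing it from count, length and library total gave differences of at most 0.005. Rows with a number suffix (2266 of 39423 genes, 0.612% of all counts) were kept apart.

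Groups were compared with edgeR 4.0.16 (quasi-likelihood, TMM, filterByExpr) in R 4.3.3, over all genes passing the filter. Calls required a Benjamini-Hochberg adjusted p below 0.05 together with a log2 fold change beyond 0.5 in either direction, and SEs were derived from the fold change and its F statistic. Each knockdown and each course used its 6 libraries and the interaction all 12. The members and all gene lists were chosen with earlier results of these data known. Named genes were the members, their paralogues, other complement genes called in a knockdown comparison, the 4 most abundant of those lists, the 3 nearest patterns for Cfd, C3 and C4b, Prmt1, and up to 3 genes with the smallest p of each comparison list. The adipocyte plot shows its whole list. Neu1, Atf6b, Clu, Fabp4, the macrophage markers and the genes at 0 counts were named after their values were seen. Alternatives were DESeq2 1.42.0, RLE normalization, other count filters, a replicate block, 1 model for all libraries, summed copies, and leaving out each library; scripts were tested on simulated data.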

Additional observations from a re-analysis of the deposited data

Results flagged for a closer look

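The effect of the knockdown at day 3 minus that at day 1, on the log2 scale over all 12 libraries, met the call rule in 2 of 7 members and 3 of 15 other complement genes that passed the count filter, where 8.24% of all genes did. It was 1.40 for C1s1 and 0.68 for C1ra, which are a description and no test, since these members were chosen with the same levels known. For the other 3, from lists written with earlier results known, it was 0.94 for C1rb (adjusted p = 0.0015), 1.40 for C1s2 (adjusted p = 0.0052) and 0.75 for Clu (adjusted p = 0.030), by edgeR. All 5 were lower with the knockdown at day 1 and higher at day 3 in their fitted values. The 4 C1r and C1s genes lie within the same stretch of chromosome 6 and may share reads. C1rl, beside C1ra (124493113-124510643), differed from them, with -0.25 at day 1, not called, and -0.54 at day 3, called lower. A positive interaction was not particular to complement genes, since all 7 fibroblast and preadipocyte markers had one and 3 of these were called.

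Counts outside the rows used for the members were found under suffixed names, at 14 counts for C4b, 102 for Cfb and 773 for Cd55 over the 12 libraries, above the 3 counts that a count of 0 allows. Their origin was not tested.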

How the results depend on the processing

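Over all fits, a member's log2 fold change kept its direction and its side of the call rule in 431 combinations of member, comparison and alternative, lost the call in 6, gained it in 6 and changed sign in 12. The knockdown calls of C1s1 held in all 13 alternatives on each day (-0.65 to -0.57 at day 1, 0.74 to 0.80 at day 3), as did that of Cfd at day 3 (-1.09 to -0.92). These fits reuse the values by which the members were chosen, so they describe the processing and are no test of a member. The sign changes were all in scarce values. For Cd55 at day 1 the value was 0.29 without siCtrl replicate 3 and 0.041 without siPRMT1 replicate 3 (leave-one-out range -0.28 to 0.29), and its interaction ran from -0.22 to 0.39 with single libraries left out and was 0.50 with the copies summed. The interaction of Cfd was 0.0074 with no filter on low counts and 0.0036 with a replicate block, and ran from -0.46 to 0.23 with single libraries left out. The number of genes called at day 1, 487, became 1040 without a fold threshold and ran from 123 to 873 over the leave-one-out fits; those without siCtrl replicate 2 (185) or 3 (873) or siPRMT1 replicate 1 (179), 2 (177) or 3 (123) moved by over 1.5 times. Without a fold threshold day 3 had 2313 calls in place of 933 and the siPRMT1 course 9014 in place of 5186, with 5 members in place of 3; at least 10 counts in every library left 1 member called there. The interaction had 1907 calls in place of 1204 without siCtrl replicate 3 of day 1 (leave-one-out range 813 to 1907). Of the 3 nearest patterns, log2(FPKM + 0.1) kept 1 for Cfd, 1 for C3 and 0 for C4b, and dropping the minimum FPKM kept 0 for C4b. Replicate numbers gave no steady pairing of siCtrl with siPRMT1 libraries. The correlation of same-numbered deviations was -0.12, 0.318 and 0.385 at day 1 and 0.377, 0.211 and -0.103 at day 3. At day 1 replicates 2 and 3 matched their own number best, and at day 3 only replicate 1 did. The replicate block gave 536 calls at day 1 and changed no call of a member. Summing the copies was chosen after seeing the data. Counts under the plain names were few or none for Cfd at day 1 and for Cfb, C4b, Serping1, Cd55 and C2 throughout. This limits what can be seen of them. For C2, C4b, Cfb and Cd55, too little depth and reads lost to the contig copies cannot be told apart.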
